A study of Homo sapiens with 9 samples.

Results

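CPS1 and the other enzymes and carriers of the urea cycle were followed in cultured human lung cancer cells after exposure to RSGL or BSGL, compounds known here only by these code names. The set has 9 genes, namely CPS1, NAGS, OTC, SLC25A15, ASS1, ASL, ARG1, ARG2 and CAD, picked by symbol from the 45754 genes of the table. CPS1 was included for its large fall under RSGL, so its values in comparisons that use the RSGL libraries are given as a description, with no test. The other 8 were included for their place in the pathway. Of the 9, 6 reached 1 FPKM, a fragment count corrected for gene length and library size, in at least 3 of the 9 libraries and entered the statistical model. NAGS, ARG1 and OTC did not.

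The libraries fall into 3 groups of 3. Cells were kept for 24 h with 10 µM RSGL, with 10 µM BSGL, or with 0.1% DMSO, the solvent control. The labels call the line H441, a non-small cell lung cancer line grown in serum-containing RPMI medium. A separate genotype tag reads A549 for the RSGL libraries and H460 for the BSGL and control libraries, both names of other lung cancer lines. If that tag is right, line and compound cannot be told apart. Of 7266 protein-coding genes at 5 FPKM or more in every RSGL library or in every control library, 0 were under 0.1 FPKM in every library of the opposite group. This count cannot show which line was used, because no values of the named lines were compared. Nothing in the labels says whether the replicates of a group came from separate cultures. The p-values therefore reflect only how far these samples differ, and that spread may be technical.

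The libraries held 16720414 to 18738947 fragments in genes. Of 9 markers of the lung lineage, such as NKX2-1 and the surfactant genes, 0 reached the filter, and the highest value was 1.00 FPKM, for NAPSA. NKX2-1 stayed at 0.0596 FPKM or lower in every library. Of 15 hepatocyte markers 2, FGA and FGB, passed, and of 10 small intestinal enterocyte markers 1, ANPEP, passed. Of 7 endothelial and 7 T cell markers, 0 passed. Of 8 markers of macrophages, CD68 and CD14 passed, with a summed level of 117 to 122 FPKM per RSGL library and 42.2 to 42.7 FPKM per control library. Nearly all of that sum was CD68, at 119 FPKM with RSGL and 40.2 FPKM in control, whereas CD14 was lower, at 0.346 FPKM with RSGL and 2.11 FPKM in control. Among the same 8, PTPRC stayed at 0.0133 FPKM or lower in every library, and AIF1 was at 0 in all. Of 9 fibroblast markers COL1A1, LUM and THY1 passed, with sums over the 9 of 7.93 to 8.2 FPKM per RSGL library and 9.95 to 11.4 FPKM per control library. With RSGL and in control, COL1A1 averaged 0.668 and 2.22 FPKM, LUM 4.38 and 4.65, and THY1 2.84 and 3.44. CD14 and COL1A1 reached the filter only through the BSGL and control libraries. The part of these markers in the changes described here was not tested. In bulk samples such as these, fewer cells of a type and less RNA per cell cannot be told apart.

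The urea cycle turns ammonia into urea and runs in full in the periportal hepatocyte. Inside the mitochondrion CPS1 joins ammonia and bicarbonate to carbamoyl phosphate, and it does so only when bound to N-acetylglutamate, the product of NAGS. OTC then couples carbamoyl phosphate to ornithine, which SLC25A15 brings in while it takes citrulline out. In the cytosol ASS1 and ASL turn citrulline and aspartate into arginine, and an arginase, the cytosolic ARG1 or the mitochondrial ARG2, splits arginine to urea and ornithine. Many tissues use only segments of the cycle, for instance to make arginine. CAD is the cytosolic counterpart of CPS1: it takes its nitrogen from glutamine and starts pyrimidine synthesis. In lung cancers that have lost STK11 (LKB1), CPS1 is known to be expressed and to feed carbamoyl phosphate to pyrimidines.

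CPS1 was the member with the highest level in the BSGL and control libraries and fell steeply with RSGL. The RSGL libraries stood at 3.60, 2.96 and 3.03 FPKM, the BSGL libraries at 21.4, 24.2 and 24.0 FPKM, and the control libraries at 26.0, 25.1 and 24.6 FPKM. Every RSGL library was far below every library of the other groups, and the BSGL libraries were all slightly below the control libraries. In recovered fragments these levels were 363 to 490 per RSGL library, 2942 to 3185 per BSGL library and 3204 to 3435 per control library, so counting error is small beside the difference.

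The mean was 3.20 ± 0.353 FPKM with RSGL and 25.2 ± 0.743 FPKM in control (SD, n = 3 each), a level 7.88-fold lower with RSGL. On the log2(FPKM + 1) scale used for all models, which compresses low values, the difference was -2.65 (SE 0.0664, 95% interval -2.79 to -2.5). It was the fall ranked 5 among 12775 tested genes. Against BSGL, at the same dose and time, CPS1 was 7.26-fold lower with RSGL, a log2 difference of -2.53 (95% interval -2.68 to -2.38). CPS1 lay above 79.2% of the tested protein-coding genes in control and above 22.7% of them with RSGL.

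With BSGL, CPS1 averaged 23.2 ± 1.58 FPKM, against 25.2 ± 0.743 FPKM in control. The BSGL libraries did not enter the choice of the gene, and this comparison was tested. The control libraries did enter it, and a gene picked for a fall from control may have control values high by chance. The log2 change was -0.12 (SE 0.0664, 95% interval -0.27 to 0.03, limma adjusted p = 0.831), which did not pass. The 3 libraries of each group lay apart, as they did in 12.8% of all tested genes, 5.63% with BSGL lower. The lower bound of the interval leaves room for a fall of 0.27 and for none as large as that seen with RSGL.

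**Figure D1:**
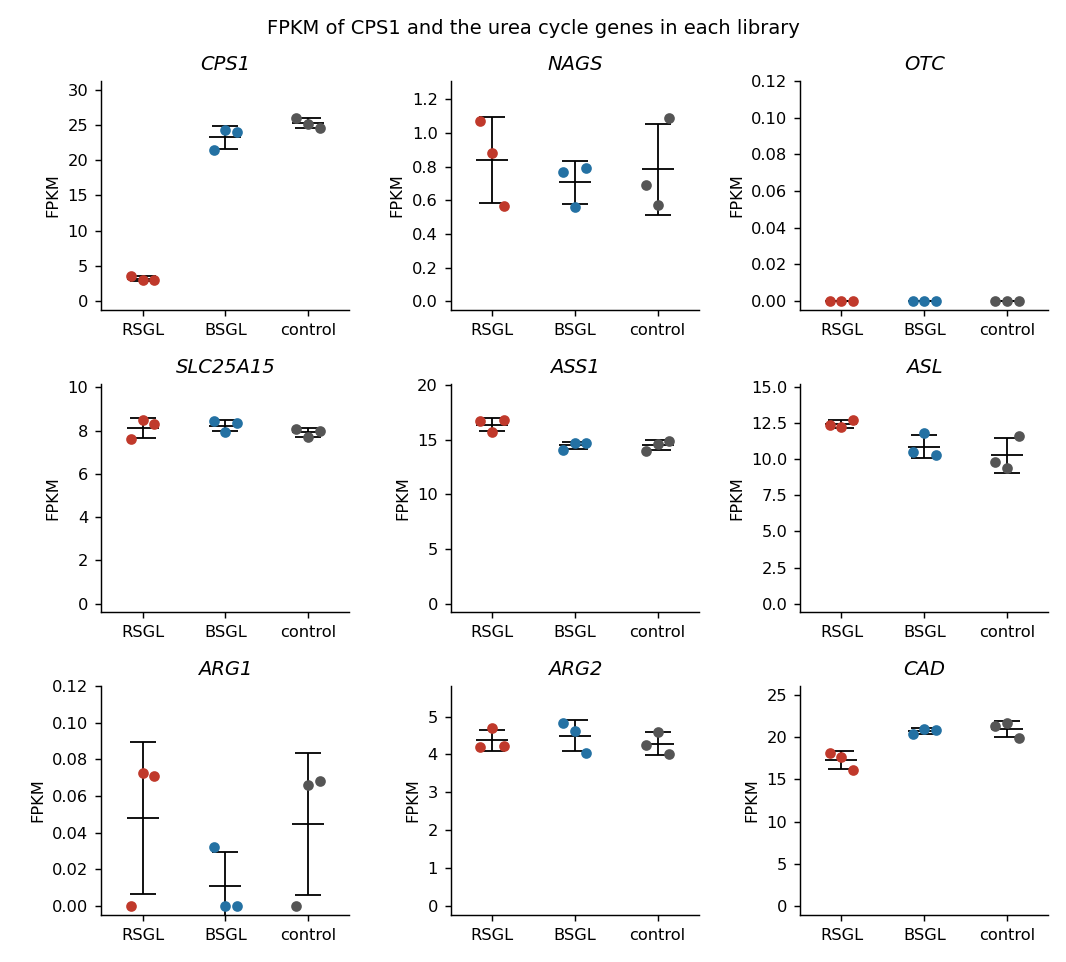
FPKM of each of the 9 genes (vertical axes, each with its own scale) in the RSGL, BSGL and control libraries; points are libraries, and bars are the mean and SD (n = 3). The RSGL libraries of CPS1 sit at 2.96 to 3.60 FPKM, below 21.4 to 24.2 with BSGL and 24.6 to 26.0 in control; OTC is at 0 in all 9 libraries, and the ARG1 points stand for at most 2 fragments each.

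CPS1 (gene ID 1373) lies on chromosome 2 of GRCh38 at 210477682 to 210679107, on the plus strand. A gene on the minus strand, LANCL1, which codes for a glutathione-binding protein, reaches up to 210477618, so that both genes start back to back, 64 bases apart. LANCL1 is mentioned here only because of this position. It stood at 15.3 ± 0.588 FPKM with RSGL and 19.4 ± 0.784 FPKM in control (SD, n = 3 each) and fell by 0.32 on the log2 scale (SE 0.047, limma adjusted p = 0.000261). With BSGL it stood at 20.1 FPKM. The RNA CPS1-IT1, listed within the CPS1 gene on the same strand, had 0 fragments in the RSGL libraries and 1 in the control libraries. RefSeq lists 3 starts for CPS1 in the promoter table, and gene-level FPKM do not show which of them these cells used.

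The sequences around the starts of both carbamoyl phosphate synthetase genes are shown because they differ widely in CpG content. Each is a RefSeq window of 300 bases on GRCh38.p14, plus strand, 5′ to 3′, from 250 bases before the start to 50 bases from it on, with each CpG dinucleotide in capitals. The CPS1 window is chr2:210477435-210477734 and also takes in the space between CPS1 and LANCL1. The CAD window is chr2:27217119-27217418, and takes its start from RefSeq, within the gene span that the authors' table gives.
CPS1: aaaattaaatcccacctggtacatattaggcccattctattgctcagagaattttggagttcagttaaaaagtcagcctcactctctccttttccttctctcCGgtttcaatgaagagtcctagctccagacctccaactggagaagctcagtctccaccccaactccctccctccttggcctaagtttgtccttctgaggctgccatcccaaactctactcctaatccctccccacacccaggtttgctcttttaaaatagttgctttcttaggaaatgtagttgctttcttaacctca
CAD: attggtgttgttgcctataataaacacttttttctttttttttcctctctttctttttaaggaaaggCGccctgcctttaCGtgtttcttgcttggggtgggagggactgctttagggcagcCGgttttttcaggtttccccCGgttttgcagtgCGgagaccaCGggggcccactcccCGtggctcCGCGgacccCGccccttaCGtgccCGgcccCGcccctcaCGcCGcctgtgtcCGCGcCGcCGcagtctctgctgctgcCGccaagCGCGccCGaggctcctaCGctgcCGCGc

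The other members are also plus-strand genes, with these GRCh38 spans in the authors' table. CAD lies on chromosome 2 at 27217257 to 27243792, NAGS on chromosome 17 at 44004546 to 44009068, and OTC on chromosome X at 38352483 to 38421450. ASS1 lies on chromosome 9 at 130444707 to 130501274, ASL on chromosome 7 at 66075789 to 66093343, and SLC25A15 on chromosome 13 at 40789411 to 40812460. ARG1 lies on chromosome 6 at 131573159 to 131584332, and ARG2 on chromosome 14 at 67619862 to 67651720.

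The CPS1 window held 1 CpG and 45.3% G and C, and 3.96% of 35116 RefSeq promoter windows had fewer CpG. The windows at the other CPS1 starts held 3 CpG each and 40.3% and 36.7% G and C. The CAD window held 26 CpG and 61.3% G and C. All 9 members had at least 1 window. Among the other members, the windows of ASS1, ASL, ARG2 and SLC25A15 held 29 to 45 CpG, that of NAGS 15, that of OTC 3 and that of ARG1 1. The letters TATAAA, searched on both strands as the TATA box, occurred in the ARG1 and OTC windows and in no window of the other members, against 11.5% of all windows. The match began at -29 from the start in ARG1 and at -192 in OTC. These are descriptions of the sequence, with the median window at 14 CpG.

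NAGS, which makes the obligate activator of CPS1, was low throughout. The RSGL libraries had 1.07, 0.881 and 0.568 FPKM, the BSGL libraries 0.765, 0.557 and 0.794, and the control libraries 0.690, 0.570 and 1.09. The groups overlapped fully, and each library held 25 to 51 NAGS fragments, so that a change of moderate size was not detectable at this depth. NAGS was not tested because 2 libraries, not 3, reached 1 FPKM. OTC, which uses the product of CPS1, had 0 fragments in every library. That allows up to 3 fragments, or 0.0872 to 0.0977 FPKM per library, and the limit covers counting error only. With these values the step from carbamoyl phosphate to citrulline had no measured transcript in any group.

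SLC25A15, the mitochondrial ornithine and citrulline carrier, did not pass in any comparison. It had 7.61, 8.48 and 8.30 FPKM with RSGL, 8.44, 7.93 and 8.33 FPKM with BSGL, and 8.09, 7.68 and 8.0 FPKM in control. The groups overlapped, and the log2 difference between RSGL and control was 0.03 (95% interval -0.08 to 0.14, limma adjusted p = 0.605). Its sign turned to -0.0028 when the libraries were set to a common sum.

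ASS1 and ASL, which together make arginine from citrulline, were higher with RSGL by small amounts. ASS1 had 16.7, 15.7 and 16.8 FPKM with RSGL, 14.1, 14.7 and 14.7 FPKM with BSGL, and 14, 14.6 and 14.9 FPKM in control. All 3 RSGL libraries lay above the other 6, whose values overlapped. The rise against control was 13.1% in mean FPKM, a log2 change of 0.17 (SE 0.0401, 95% interval 0.08 to 0.26, limma adjusted p = 0.00563). With BSGL the log2 change of ASS1 was 0.00 (95% interval -0.09 to 0.09, limma adjusted p = 0.999). ASS1 has 13 listed pseudogene copies, each at a mean of 0.103 FPKM or lower in every group; fragments shared between such copies make its level uncertain. ASL has a pseudogene, ASLP1, at 0.556 FPKM with RSGL, 0.787 with BSGL and 0.606 in control, with the same limit.

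ASL had 12.4, 12.2 and 12.7 FPKM with RSGL, 10.5, 11.8 and 10.3 FPKM with BSGL, and 9.79, 9.38 and 11.6 FPKM in control. The RSGL libraries lay above all others, though a BSGL library at 11.8 FPKM and a control library at 11.6 FPKM came close. The mean was 21.5% higher with RSGL than in control, a log2 change of 0.26 (SE 0.0728, 95% interval 0.10 to 0.43, limma adjusted p = 0.0119). Against BSGL the log2 difference was 0.18 (95% interval 0.02 to 0.35, limma adjusted p = 0.0582), which did not pass. It passed in 5 of 18 alternatives, with limma adjusted p from 0.0234 to 0.172 over all of them. The ratio of ASS1 to ASL was 1.28 to 1.35 in RSGL libraries, 1.25 to 1.43 in BSGL libraries and 1.29 to 1.55 in control libraries, so the ranges overlapped.

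The arginases, which close the cycle, showed no change that passed. ARG2 had 4.20, 4.69 and 4.23 FPKM with RSGL, 4.84, 4.61 and 4.05 FPKM with BSGL, and 4.25, 4.60 and 4.01 FPKM in control. The log2 difference between RSGL and control was 0.02 (95% interval -0.13 to 0.18, limma adjusted p = 0.796), and its sign turned to -0.0087 with a common sum and -0.0059 with quantile scaling. ARG2 overlaps VTI1B on the opposite strand and GPHN on its own strand. VTI1B, at 47.7 FPKM with RSGL and 47.0 FPKM in control, is the more abundant, and no source states whether fragments were counted by strand, so the level of ARG2 is uncertain. ARG1, the arginase of liver, had 4 fragments over the 3 RSGL libraries, 1 over the BSGL libraries and 4 over the control libraries, and it overlaps MED23 on the opposite strand.

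CAD, which makes carbamoyl phosphate for pyrimidines, was lower with RSGL. It had 18.1, 17.6 and 16.1 FPKM with RSGL, 20.3, 21.0 and 20.8 FPKM with BSGL, and 21.3, 21.7 and 19.9 FPKM in control. All RSGL libraries lay below the other 6. The fall in mean FPKM was 17.6% against control, a log2 change of -0.27 (SE 0.0493, 95% interval -0.38 to -0.16, limma adjusted p = 0.0012). Against BSGL the log2 difference was -0.25 (95% interval -0.36 to -0.14, limma adjusted p = 0.00179). Between BSGL and control it was -0.01 (95% interval -0.12 to 0.10, limma adjusted p = 0.984).

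In all, of the 5 members tested beside CPS1 in the comparison of RSGL with control, ASS1 and ASL rose, CAD fell, and SLC25A15 and ARG2 did not pass. In that comparison 54.8% of all tested genes were called, 27.2% higher and 27.6% lower, so 3 of 5 members is close to the share among all genes. The libraries of both groups lay apart in 3 of these 5 members and in 61.2% of all tested genes. Called falls of at least 1 on the log2 scale were rarer, at 1.42% of all genes, and 0 of these 5 members reached that size. Between RSGL and BSGL, ASS1 was higher and CAD lower, 2 of the same 5, where 54% of all tested genes were called, 26.5% higher and 27.5% lower. There too the libraries lay apart in 3 of the 5, ASS1, ASL and CAD, and in 61.2% of all genes. Between BSGL and control 0 of 6 members were called by limma, where 0.0861% of all genes were called. At an unadjusted p under 0.05 in the same model the count was also 0 of 6, beside 857 of 12775 genes. By limma-voom 0 of the 6 were called, beside 31 genes. The comparisons with control share the control libraries, and those with RSGL share the RSGL libraries.

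**Figure D2:**
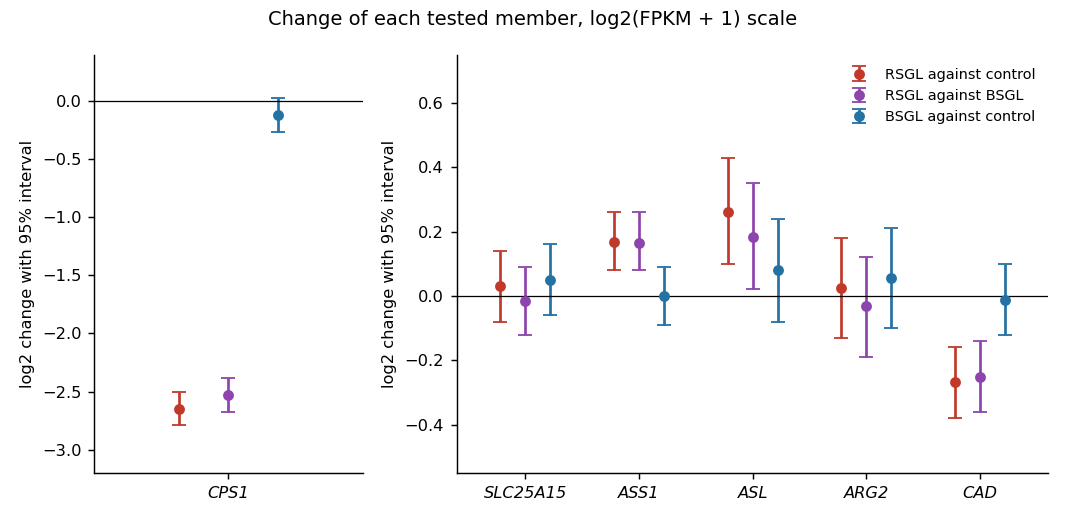
Log2 change of the 6 tested members with 95% intervals of the model (vertical axes, log2(FPKM + 1) scale), CPS1 on the left on a wider axis; colours mark RSGL against control, RSGL against BSGL and BSGL against control. CPS1 lies at -2.65 and -2.53 in the comparisons with RSGL and at -0.12 with BSGL, while the other members stay between -0.27 and 0.26.

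**Figure D3:**
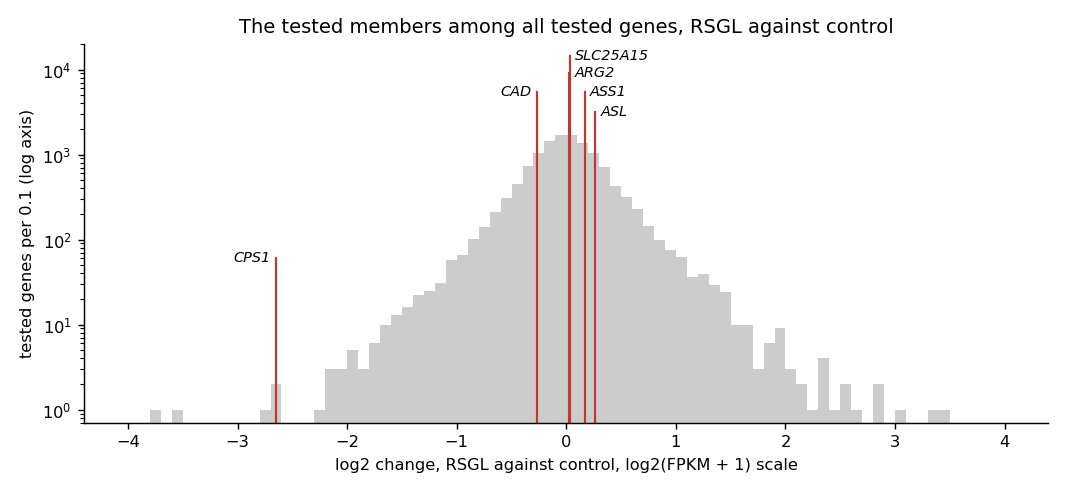
Histogram of the log2 change between RSGL and control over the 12775 tested genes (horizontal axis, log2(FPKM + 1) scale; vertical axis, genes per 0.1, log axis), with lines at the 6 tested members; line heights are set for legibility only. CPS1 lies in the sparse lower tail at -2.65, and the other 5 lie within the bulk, from CAD at -0.27 to ASL at 0.26.

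The order of the members' levels, in FPKM and so per length of gene, was the same with BSGL and in control, from CPS1 at the top through CAD, ASS1, ASL, SLC25A15, ARG2 and NAGS to ARG1 and OTC. In both groups each gene's libraries lay above those of the next, apart from ARG1 and OTC at or near 0. With RSGL, CAD at 17.2 FPKM and ASS1 at 16.4 FPKM led and overlapped, and CPS1 dropped to place 6, between ARG2 and NAGS. The ratio of CPS1 to CAD, taken within each library, averaged 0.185 ± 0.0158 with RSGL, 1.12 ± 0.052 with BSGL and 1.21 ± 0.0416 in control (SD, n = 3 each). CPS1 RNA thus exceeded CAD RNA per length in every BSGL and control library, and CAD exceeded CPS1 in every RSGL library. The ratio of ASS1 to CAD was 0.892 to 1.04 with RSGL, 0.698 to 0.704 with BSGL and 0.658 to 0.751 in control, with RSGL apart from the other groups.

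Replicate spread was small for the expressed members. The coefficient of variation of CPS1 was 11% with RSGL, 6.79% with BSGL and 2.95% in control. That of CAD was 6.05% with RSGL, 1.90% with BSGL and 4.56% in control. ASL was tightest with RSGL, at 2.19%, against 7.26% with BSGL and 11.3% in control.

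The protein-coding genes whose profile over the 9 libraries was nearest to that of CPS1, by Euclidean distance on the log2(FPKM + 1) scale after subtracting each control mean, were DIRAS3, IGFBP3, EDN1, DIO2 and SAMD11, among 10909 genes. Their distances ran from 0.47 for DIRAS3, a Ras-family GTPase, to 1.06 for SAMD11. Pearson's r across the 9 libraries was 0.979 to 0.998, which largely reflects that the 3 RSGL libraries stand apart, and is given as a description. EDN1, the vasoactive peptide endothelin, had 6.23 FPKM with RSGL, 30.1 with BSGL and 30.9 in control. DIO2, a deiodinase that activates thyroid hormone, had 1.61 FPKM with RSGL, 9.59 with BSGL and 10.1 in control.

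Among 14 genes known to act on CPS1 transcription, or tied to CPS1 in lung cancer, 13 were tested, and with RSGL against control 5 rose and 4 fell. That is 69.2% called, against 54.8% of all tested genes, and the median log2 change was -0.06, beside 0.00 over all tested genes. HNF4A, a nuclear receptor of the liver and gut programme, is named after its values were seen, since it lies under 5 FPKM. It is among the 4, and is given as a description, because it reached the filter only through the BSGL and control libraries. The 69.2% that counts it is likewise a description. HNF4A had 0.642, 0.447 and 0.608 FPKM with RSGL, 2.69, 2.62 and 2.34 FPKM with BSGL, and 2.83, 2.84 and 2.37 FPKM in control. The RSGL libraries lay below all others, with a log2 difference from control of -1.23.

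NR3C1, the glucocorticoid receptor, through which glucocorticoids raise CPS1 in liver, averaged 8.34 ± 0.674 FPKM with RSGL and 15.6 ± 0.355 FPKM in control (log2 change -0.84, SE 0.0597, limma adjusted p = 1.83e-06). The C/EBP factors, which also bind CPS1 control regions in liver, moved the opposite way. CEBPB averaged 109 FPKM with RSGL and 39.1 FPKM in control (log2 change 1.46, limma adjusted p = 3.65e-08), and CEBPA 8.54 FPKM with RSGL and 5.72 FPKM in control (0.51, limma adjusted p = 0.000151). MYC rose too, to 45.3 FPKM with RSGL against 36.1 FPKM in control (0.32, limma adjusted p = 0.000407). FOXA2, at 18.3 FPKM with RSGL and 18.6 FPKM in control, and the kinase STK11, at 14.1 FPKM with RSGL and 14.7 FPKM in control, did not pass. With BSGL 0 of the 13 were called by limma, where 0.0861% of all tested genes were called.

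**Figure D4:**
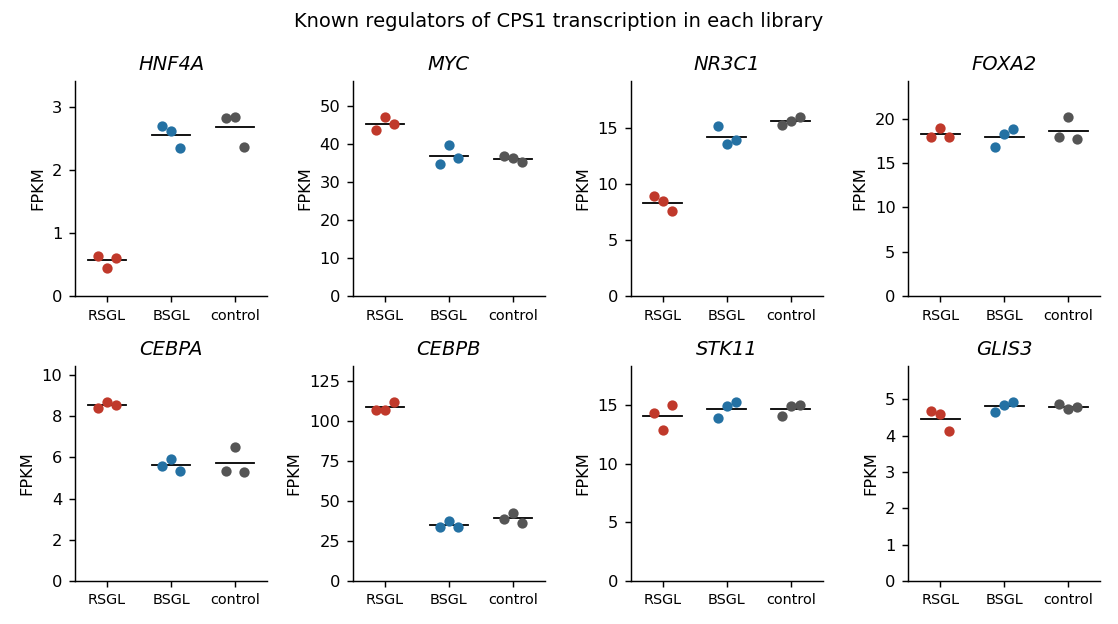
FPKM (vertical axes, each with its own scale from 0) of 8 regulators of CPS1 transcription or kinases tied to it in the RSGL, BSGL and control libraries; points are libraries and lines are means. HNF4A and NR3C1 are lower in all RSGL libraries, CEBPA, CEBPB and MYC are higher, and FOXA2 and STK11 overlap between groups.

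The 15 hepatocyte markers were low and went both ways, and are given as a description. FGA and FGB, genes of fibrinogen, reached the filter only through the BSGL and control libraries. FGA averaged 0.086 FPKM with RSGL and 2.27 FPKM in control, and FGB 0.0301 FPKM with RSGL and 1.40 FPKM in control. HPD, an enzyme of tyrosine breakdown, averaged 1.17 FPKM with RSGL and 0.542 FPKM in control, and CYP2E1 0.262 FPKM with RSGL and 0.0938 FPKM in control; neither reached the filter. The summed level of the 15 hepatocyte markers was 1.59 to 2.19 FPKM per RSGL library and 4.66 to 5.48 FPKM per control library. The defining marker ALB averaged 0.0307 FPKM or lower in each group, and APOA2 was at 0 in all. The summed enterocyte markers were at 15.6 to 16.5 FPKM per RSGL library and 7.28 to 7.62 FPKM per control library, nearly all from ANPEP. The part of either in the fall of CPS1 was not tested.

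In the pathways that adjoin the cycle, changes under RSGL went both ways. Of 17 tested enzymes of ornithine, proline and polyamines 7 rose and 7 fell (82.4% called, against 54.8% of all tested genes; median log2 change 0.01). PRODH2, a mitochondrial dehydrogenase of hydroxyproline, fell to 1.91 ± 0.328 FPKM with RSGL, against 6.75 ± 0.63 FPKM in control (log2 change -1.42, limma adjusted p = 1.21e-06). SMOX, which oxidises spermine, averaged 142 FPKM in control and was higher with RSGL (0.92, SE 0.0353, limma adjusted p = 2.85e-08). PYCR1, which makes proline, rose by 0.54 (limma adjusted p = 6.44e-07) and ODC1, which makes putrescine from ornithine, by 0.41 (limma adjusted p = 8.79e-06). OAT, which turns ornithine to glutamate semialdehyde in mitochondria, fell by 0.35 (limma adjusted p = 0.00138).

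Of 13 tested genes of ammonia, glutamate and aspartate supply 6 rose and 4 fell (76.9% called, against 54.8% of all tested genes; median 0.06). ASNS, which makes asparagine from aspartate, averaged 143 FPKM with RSGL and 44.5 FPKM in control (1.66, limma adjusted p = 4e-10). SLC1A3, an importer of glutamate and aspartate, fell to 4.43 ± 0.162 FPKM with RSGL, against 12.5 ± 0.582 FPKM in control (-1.32, limma adjusted p = 9.74e-08). The aminotransferases GPT2 (0.86, limma adjusted p = 9.64e-07) and GOT1 (0.51, limma adjusted p = 2.07e-06) rose. GLUD1, which frees ammonia from glutamate, did not pass, at 45.4 FPKM with RSGL and 43.4 FPKM in control.

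Of 12 tested genes of arginine, citrulline and nitric oxide 4 rose and 4 fell (66.7% called, against 54.8% of all tested genes; median 0.01). SLC25A13, the mitochondrial carrier that supplies aspartate for ASS1, fell by 0.26 (limma adjusted p = 0.00174) and its relative SLC25A12 by 0.22 (limma adjusted p = 0.00888). NOSIP, an interactor of nitric oxide synthase, fell by 0.11 (limma adjusted p = 0.0436). Among genes with means under 5 FPKM, DDAH1 (0.53, limma adjusted p = 0.000143) and SLC25A29 (0.47, limma adjusted p = 1.67e-05) rose. AGMAT, also under 5 FPKM, fell (-0.47, limma adjusted p = 0.000931). CA5B, counted as a rise at 1.29 FPKM with RSGL and 0.647 FPKM in control, reached the filter only through the RSGL libraries. Its rise, and the 66.7% that counts it, are descriptions. The synthases NOS1, NOS2 and NOS3 were each at 0.157 FPKM or lower in every library. Of 9 tested genes of cationic amino acid transport 5 rose and 3 fell (88.9% called, against 54.8% of all; median 0.29). SLC7A1, the main importer of arginine, averaged 20.4 FPKM with RSGL and 15.8 FPKM in control (0.35, limma adjusted p = 0.000114), and SLC3A2, the heavy chain shared by several amino acid exchangers, rose by 0.29 (limma adjusted p = 7.32e-05). SLC38A9, a lysosomal arginine sensor, rose by 0.43 (limma adjusted p = 0.000563). The 3 that fell were SLC7A7 (-0.91), SLC3A1 (-0.46) and SLC7A2 (-0.14). SLC7A7, at 0.993 FPKM with RSGL and 2.74 FPKM in control, reached the filter only through the BSGL and control libraries. So did SLC3A1, at 0.63 FPKM with RSGL and 1.25 FPKM in control. Both falls, and the 88.9% that counts them, are descriptions.

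Around CAD, 1 of 16 tested genes of pyrimidine synthesis and salvage rose and 7 fell (50% called, against 54.8% of all tested genes; median -0.10). TK1, thymidine kinase, averaged 46.4 ± 2.52 FPKM with RSGL and 101 ± 5.81 FPKM in control (-1.10, limma adjusted p = 1.91e-07), and TYMS, thymidylate synthase, 17 FPKM with RSGL and 35.5 FPKM in control (-1.01, limma adjusted p = 9.96e-06). DUT, which removes dUTP, fell by 0.49 (limma adjusted p = 2.9e-05). UMPS, which completes UMP, fell by 0.30 (limma adjusted p = 0.000106), DHODH did not pass (-0.08, limma adjusted p = 0.394), and CTPS1, which makes CTP, rose by 0.38 (limma adjusted p = 8.98e-06). A list of 16 S phase and replication genes, TYMS among them, was called lower in full, where 27.6% of all tested genes were called lower. Its median was -0.81, led by RRM2 at -1.14, MCM4 at -1.11 and GINS2 at -1.02. CAD, at -0.27, fell by less than that median. The part of cell cycling in the fall of CAD was not tested. With BSGL against control, 0 tested genes of any of these lists were called by limma, where 0.0861% of all tested genes were called.

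**Figure D5:**
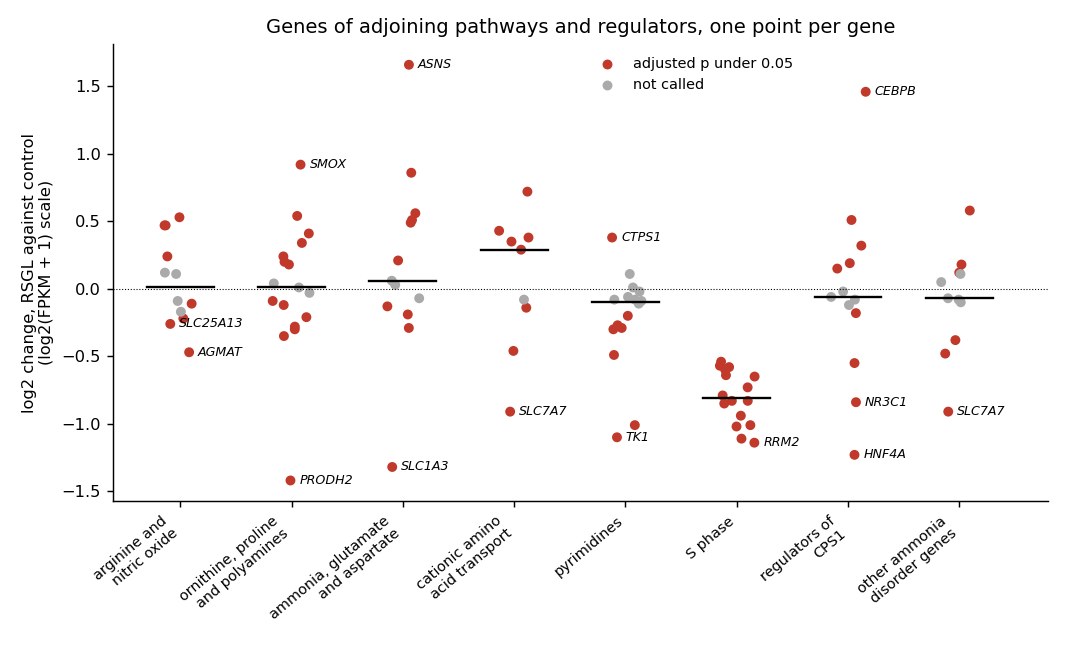
Log2 change between RSGL and control (vertical axis, log2(FPKM + 1) scale) of each tested gene in 8 lists of adjoining pathways, S phase and regulators; red points passed an adjusted p of 0.05, grey points did not, and bars are list medians. Medians lie between -0.10 and 0.29 apart from S phase at -0.81, and single genes such as ASNS at 1.66 and PRODH2 at -1.42 lie far from the median of their list.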

How the data were processed

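The authors deposited 1 table of FPKM for 9 libraries of total RNA (TRIzol extraction and NEBNext Ultra libraries, per the labels' protocols). No role is given for the tools in the submitters' processing notes, which are DESeq2 1.16.1, featureCounts 1.5.0-p3 and HISAT2 2.0.5. By its chromosome accessions, the table is on GRCh38. FPKM times gene length gave whole multiples of 1 step per library for 100% of values under 300 fragments (tolerance 0.01), from which fragments were recovered.

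The 12775 genes that reached 1 FPKM in 3 or more libraries were analysed as log2(FPKM + 1) in 1 model of all 9 libraries with a term per group (limma 3.58.1 and statmod 1.5.0, under R 4.3.3; trend and robust options). P-values were adjusted by Benjamini-Hochberg over all these genes, and calls were made below 0.05. Intervals are 95% intervals. Replicate pairs differed by more than counting noise (mean chi-square per gene 4.13 to 9.28). The pipeline was tested on simulated data. Members and lists were chosen with earlier results of these data known; 195 list genes were matched, 4 by older symbols. The 9 members and the 5 genes most like CPS1 are named, and from each list, marker lists apart, the up to 4 called genes with the largest change between RSGL and control whose libraries do not overlap and whose higher mean reaches 5 FPKM; others are named as examples, chosen after their values were seen. A few list genes are counted but not reported here by name. Alternatives changed pseudocount, filter, scaling, model options, gene set, libraries and the use of replicate numbers; limma-voom on recovered fragments was added after seeing the data.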

Additional observations from a re-analysis of the deposited data

How the results depend on the processing

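The calls of ASS1, ASL and CAD between RSGL and control held in all 18 alternatives, with log2 changes of 0.14 to 0.20, 0.21 to 0.35 and -0.31 to -0.22. CPS1 ranged from -2.98 to -2.60 in that comparison, and from -0.15 to -0.06 between BSGL and control, where it was never called. The count of genes called between BSGL and control, 11, was 0 with no filter, a common sum, no trend and robust options, only the compared groups, or a replicate block (813 to 1601 genes at an unadjusted p under 0.05, by limma), 0 to 2 with a library left out, and 31 with limma-voom, which was added after seeing the data; the cause was not tested. Same-numbered libraries of RSGL and control deviated together with r of 0.0156, 0.046 and 0.121, and different-numbered ones with r of -0.108 to 0.0632. Between BSGL and control the same-numbered r was -0.0247, 0.0583 and -0.0556. With 3 libraries a group, such values cannot show whether the replicate numbers pair the libraries. The replicate block changed no call of a member.

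Signs turned only among members that did not pass. Between BSGL and control, ASS1 was -0.00032 with median-ratio scaling, -0.027 with a common sum, -0.0088 with quantile scaling, -0.010 with limma-voom and -0.022 to 0.020 with a library left out, and CAD -0.050 to 0.0096 with a library left out. Between RSGL and control, ARG2 was -0.0087 with a common sum, -0.0059 with quantile scaling and -0.018 to 0.066 with a library left out, and SLC25A15 -0.0028 with a common sum. Between RSGL and BSGL, with a library left out, SLC25A15 was -0.045 to 0.025 and ARG2 -0.092 to 0.013. The call of ASL against BSGL was gained with a filter of 5 FPKM, only the compared groups, protein-coding genes only, limma-voom, or without BSGL replicate 2. Depth limits NAGS, ARG1 and OTC.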

Other observations

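Other inherited disorders than those of the cycle also raise blood ammonia, and 11 of their genes were tested. With RSGL against control 3 rose and 3 fell (54.5% called, where 54.8% of all genes were called; median log2 change -0.07). PC, which makes oxaloacetate from pyruvate, averaged 3.94 ± 0.0674 FPKM with RSGL and 5.86 ± 0.251 FPKM in control (-0.48, limma adjusted p = 1.03e-05). CPT2, of mitochondrial fatty acid entry, fell by 0.38 (limma adjusted p = 0.000186), and ACADVL, which begins long-chain oxidation, rose by 0.18 (limma adjusted p = 0.0015). SLC7A7, an exporter of cationic amino acids, averaged 0.993 FPKM with RSGL and 2.74 FPKM in control, and is named after its values were seen. It is among the 3 that fell, and it reached the filter only through the BSGL and control libraries. Its fall, and the 54.5% that counts it, are descriptions.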
